A study of Mus musculus with 11 samples.

Results

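The 45 genes described here carry a cell from rest through DNA replication to division, and they were chosen by name and role, with earlier results of these livers known. Of them, 39 had a row among the 13669 genes of the table and 38 were among the 13334 genes tested. *Prc1* had a row but exceeded 10 reads in fewer than 5 livers and was not tested, and *Ccnb1*, *Ccnb2*, *Cdc20*, *Aurkb*, *Plk1* and *Bub1* were not analysed here. By role, the list holds 5 G1 cyclins and their kinases, 3 G1 brakes, 4 genes of S phase entry, 6 subunits of the replicative helicase, 5 enzymes and factors of DNA synthesis, 20 genes of G2 and mitosis, and 2 genes linked to proliferation without a single phase.

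RNA of whole liver was sequenced from the 3′ end in wild-type C57BL/6J mice on regular chow, 5 that had received AAV-NC and 6 that had received AAV-TuD. AAV-TuD is a recombinant adeno-associated virus that expresses a tough decoy, a hairpin RNA with a binding site for *miR-379* and another for *miR-541*, and AAV-NC carries a negative control sequence in its place. Per the study's methods the virus was of serotype 8, both vectors held a mutated EGFP sequence and the liver-specific LP1 promoter, and the mice were young males killed after a short fast. The labels give neither the age nor the time after injection, and since all 11 mice received a vector, the data hold no liver without one. The samples are separate livers per the labels, and because the RNA is of whole tissue, more cells of a type and more RNA per cell cannot be told apart.

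In a resting cell the D-type cyclins, with Cdk4 or Cdk6, begin the phosphorylation of the retinoblastoma protein, which frees E2F factors to switch on the genes of S phase, while inhibitors such as Cdkn1b and Cdkn2c hold these kinases back. The Mcm helicase is loaded on origins in G1 and unwinds DNA in S phase, and the genes of G2 and mitosis are released later, largely through the MuvB complex and Foxm1. Hepatocytes of adult liver rarely divide, but they can enter the cycle after injury or loss of tissue, and non-parenchymal cells of the liver can divide as well.

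The libraries held 8148531 to 12043959 reads in genes, so that 1 CPM (a read count over the scaled library size, with TMM, the trimmed mean of M-values, as scaling) stood for 7.94 to 12.4 reads. AAV-NC 7, AAV-TuD 3 and AAV-TuD 5 stood apart, with 38.6%, 30.9% and 28.4% of their reads in the major urinary protein (*Mup*) genes against 8.09% to 18.7% in the other 8 livers, and counts are therefore also given without these livers. Of the 7 hepatocyte markers, *Alb*, *Apoa1*, *Ttr*, *Cps1*, *Tat* and *Cyp2e1* did not pass the test between the groups in edgeR. *Hnf4a* passed and was lower with AAV-TuD (log2 fold change -0.38, edgeR adjusted p = 0.015). Mean *Alb* was 21096 CPM with AAV-NC and 28044 CPM with AAV-TuD, without overlap between the groups. Mature miRNAs are not read by this assay, and the long RNA *Meg3*, from the same locus, was at 16.1 ± 11.9 CPM in the controls (SD, n = 5) and 8.63 ± 1.98 CPM after AAV-TuD (SD, n = 6; edgeR adjusted p = 0.11).

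The mature sequences of the miRNAs bound by the decoy are shown with the seed, bases 2 to 8, in capitals, because it is the seed that pairs with a target (RefSeq, GRCm38.p6; *miR-379-5p* at chr12:109709065-109709085 and *miR-541-5p* at chr12:109742422-109742446, both on the plus strand).
mmu-miR-379-5p: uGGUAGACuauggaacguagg
mmu-miR-541-5p: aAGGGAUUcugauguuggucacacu
The seeds differ from each other. The letters that pair with the seed of *miR-379-5p* (GTCTACC) were found in the longest annotated 3′ UTR of 1 of the 38 cell cycle genes tested, *Cdk2*, against 5.72% of the 10935 tested genes with such a UTR. Those that pair with *miR-541-5p* (AATCCCT) were found in 0 of the 38, against 9.51%. A match of letters is a description of the sequence and no measure of binding. The paper reports that the decoy also lowered *lncMGC* and *Mirg*, host transcripts of the cluster, and further miRNAs made from them. The seeds of those miRNAs were not counted here, so the counts do not cover all that was lowered.

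With AAV-TuD, 19 of the 38 cell cycle genes tested were higher at a Benjamini-Hochberg adjusted p below 0.05 (quasi-likelihood test of edgeR, adjusted over all genes), and 0 were lower. Over all genes tested, 7.24% were higher and 4.33% lower. DESeq2 and limma-voom also called 0 of the 38 lower. At an unadjusted p below 0.05 edgeR gave 28 higher and 1 lower, *Pttg1*. Shares over all genes at an unadjusted p are not given here or below, so such counts are not read as a result. The median log2 fold change of the 38 was 0.84, against -0.0024 over all genes tested. The 38 include 16 genes for which the filter favours a higher value with AAV-TuD, so this median carries no weight as support. In 6 of the 38 the lowest AAV-TuD liver exceeded the highest control, as in 4.11% of all genes tested. Without the 3 livers rich in *Mup* reads 17 of 34 were higher, against 816 of the 12810 genes tested in that fit. Of the 19, 15 had a log2 fold change of 1 or more, as did 424 of all 966 higher genes. The 19 include 10 genes that entered the test through the AAV-TuD livers.

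Most of these genes were scarce: 29 of the 38 had a mean under 10 CPM, and 15 of the 19 higher genes were among them, where 8.82% of all such genes were higher. Of the 38, 16 did not exceed 10 reads in every AAV-NC liver and entered the test with the help of the AAV-TuD livers. In such genes the filter favours a higher value with AAV-TuD. Their counts, fold changes and separation between the groups carry no weight as support. Of the other 22, which exceeded 10 reads in every AAV-NC liver, 9 were higher, against 5.72% of all genes that did so. Of the 19 genes that did not pass, 15 had a log2 fold change above 0 and 4 below. Over all 38 it was above 0 in 34, against 6608 of the 13334 genes tested. Among the 15, *Ccne1*, *Ccna2*, *Mcm2*, *Aurka*, *E2f1* and *Ccnd3* entered the test with the help of the AAV-TuD livers, so their direction carries no weight as support.

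**Figure D1:**
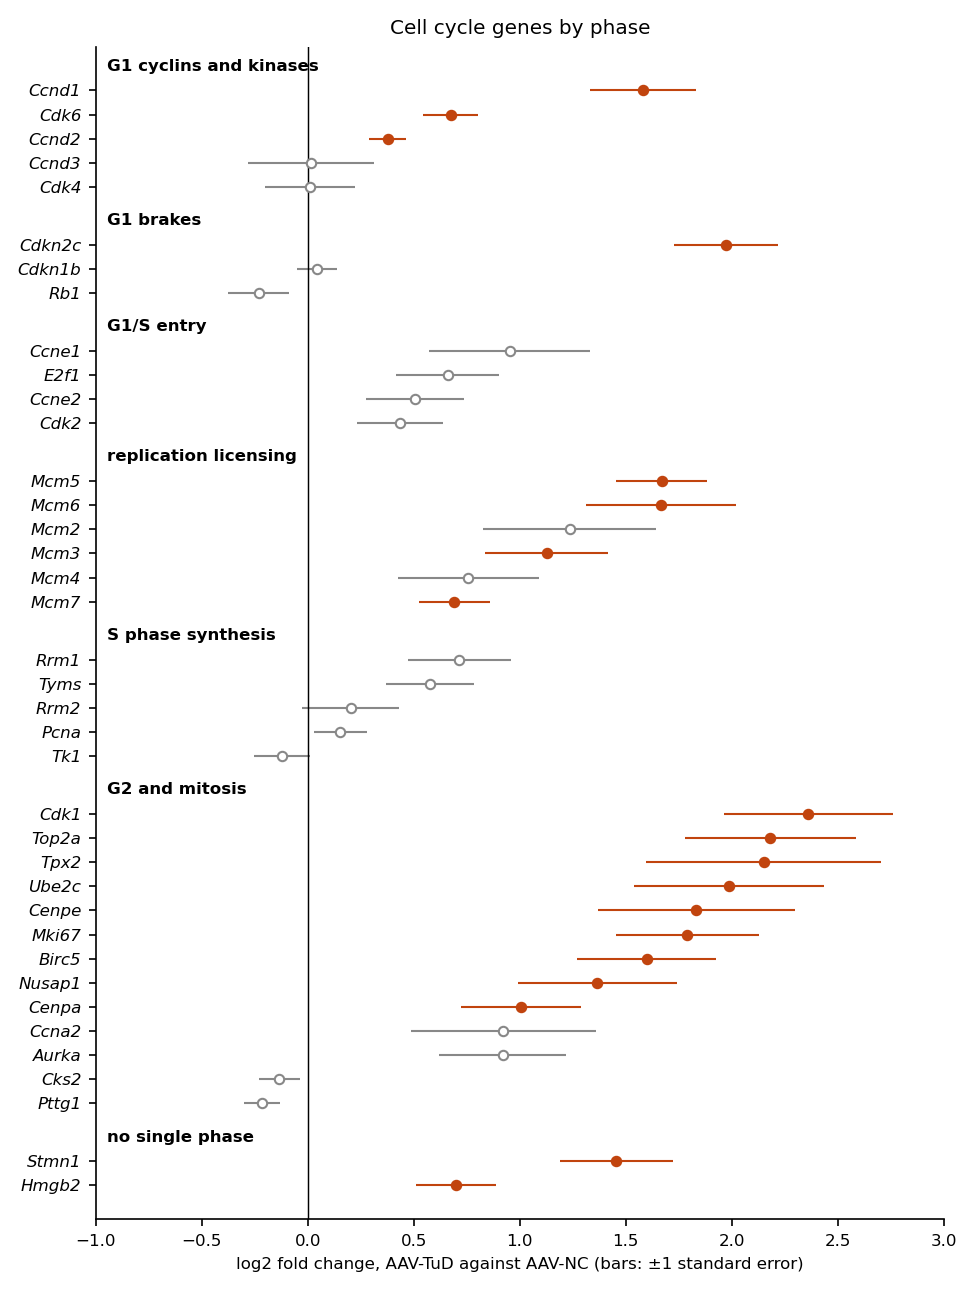
Log2 fold change of each of the 38 cell cycle genes tested, AAV-TuD (n = 6) against AAV-NC (n = 5), with bars of 1 standard error, grouped by role. Filled points mark the 19 genes with an edgeR adjusted p below 0.05, 9 of them in G2 and mitosis, 4 in replication licensing, and 0 in G1/S entry or S phase synthesis.

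Among the G1 cyclins and kinases, *Ccnd1*, *Cdk6* and *Ccnd2* rose, and *Ccnd3* and *Cdk4* did not pass the test. *Ccnd1*, which encodes cyclin D1 and is induced by growth signals, was read at 13.5, 9.06, 8.52, 12.8 and 16.3 CPM in AAV-NC 1, 2, 6, 7 and 8, and at 21.6 (lowest, AAV-TuD 3), 33.5 (median) and 56.3 (highest, AAV-TuD 10) CPM with AAV-TuD. The groups did not overlap, and the AAV-TuD livers spread more widely than the controls. The means were 12.02 ± 3.23 (SD, n = 5) and 36.1 ± 13.9 CPM (SD, n = 6), a log2 fold change of 1.58 ± 0.25 (SE; edgeR adjusted p = 0.0013). *Cdk6*, a kinase partner of the D-type cyclins, was at 22.3, 21.5, 20.7, 23.7 and 14.5 CPM in the AAV-NC livers and at 26.4, 32.9 and 40.4 CPM (lowest, median and highest) with AAV-TuD. Its groups did not overlap either, and here AAV-TuD 3, at 32.1 CPM, was in the middle of its group (log2 fold change 0.68 ± 0.13, edgeR adjusted p = 0.0043). *Ccnd2*, cyclin D2, had AAV-NC values of 29.8, 33.5, 32.5, 35.1 and 28.5 CPM and AAV-TuD values of 34.2, 43.4 and 44.7 CPM (lowest, median and highest). The change was small, and AAV-TuD 3 lay within the AAV-NC range (log2 fold change 0.38 ± 0.09, edgeR adjusted p = 0.012). *Ccnd3* and *Cdk4*, the other D-type cyclin and its other kinase partner, had log2 fold changes of 0.01 ± 0.30 and 0.01 ± 0.21 at means of 1.72 to 2.83 CPM, a depth at which a change of the size seen for *Ccnd2* was not detectable.

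**Figure D2:**
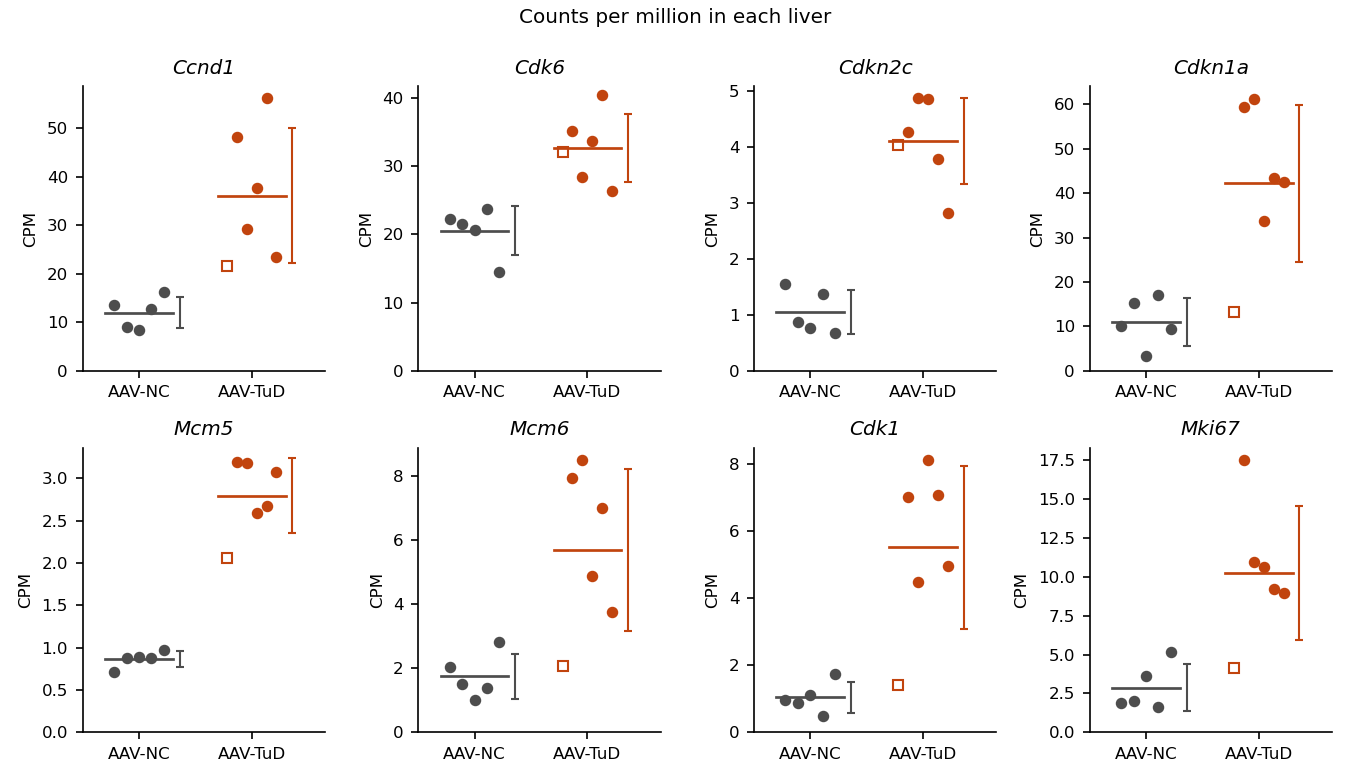
CPM of 8 genes in each liver, with the mean as a line and ±1 SD as a bar beside it (AAV-NC, n = 5; AAV-TuD, n = 6). The open square is AAV-TuD 3, which lies within the AAV-NC range for *Cdkn1a*, *Mcm6*, *Cdk1* and *Mki67* and above it for *Ccnd1*, *Cdk6*, *Cdkn2c* and *Mcm5*.

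Of the 3 brakes of G1, *Cdkn2c* rose while *Cdkn1b* and *Rb1* did not pass the test. *Cdkn2c* encodes p18, an inhibitor of Cdk4 and Cdk6, and had 1.55, 0.881, 0.775, 1.38 and 0.681 CPM in the AAV-NC livers and 2.82, 4.16 and 4.89 CPM (lowest, median and highest) with AAV-TuD. Every AAV-TuD liver, AAV-TuD 3 included, was above every AAV-NC liver. The log2 fold change was 1.97 ± 0.25 (edgeR adjusted p = 0.00025), from 7 to 13 reads per AAV-NC liver to 33 to 60 per AAV-TuD liver. *Cdkn1b*, which encodes the inhibitor p27, was at 19.2, 17.2, 23.6, 21.4 and 19.9 CPM with AAV-NC and at 18.7, 21.3 and 22.4 CPM (lowest, median and highest) with AAV-TuD. Its groups lay in the same range (log2 fold change 0.04 ± 0.09, edgeR adjusted p = 0.82). *Rb1*, the retinoblastoma protein itself, was at 6.42 ± 0.84 and 5.47 ± 0.92 CPM (SD, n = 5 and n = 6; edgeR adjusted p = 0.34), and its gene overlaps *Rcbtb2* and *Lpar6* on the other strand.

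None of the 4 genes of S phase entry passed the test in edgeR, DESeq2 or limma-voom, although their log2 fold changes were all above 0. All 4 had an unadjusted p below 0.05 in edgeR, for which no share over all genes is given. *Ccne1* and *Ccne2*, the E-type cyclins, had log2 fold changes of 0.95 ± 0.38 and 0.51 ± 0.23, *Cdk2*, their kinase, had 0.44 ± 0.20, and the transcription factor *E2f1* had 0.66 ± 0.24. Their edgeR adjusted p ran from 0.092 for *E2f1* to 0.19 for *Cdk2*, with 3 of 6 AAV-TuD livers above the highest control for *E2f1* and 4 of 6 for *Cdk2*. *Ccne1* did not exceed 10 reads in any AAV-NC liver, and without AAV-NC 8 *E2f1* passed (log2 fold change 0.91, edgeR adjusted p = 0.027).

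The Mcm2 to Mcm7 proteins form the ring of the helicase that is loaded on replication origins, and *Mcm5*, *Mcm6*, *Mcm7* and *Mcm3* rose with AAV-TuD while *Mcm2* and *Mcm4* did not pass. The 100 bases before the RefSeq start sites of *Mcm5* and *Mcm6* (GRCm38.p6; chr8:75109409-75109508, plus strand, and chr1:128359706-128359805, minus strand) are shown because the promoters of this group held E2F letters more often than promoters at large, as given further on. Capitals mark CCAAT or its reverse ATTGG, and in *Mcm6* also the E2F letters TTTGGCGC at position -47. The E2F letters of *Mcm5* stand at position -149, outside the bases shown.
Mcm5: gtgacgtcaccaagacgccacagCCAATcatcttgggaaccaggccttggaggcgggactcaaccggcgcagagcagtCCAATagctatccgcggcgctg
Mcm6: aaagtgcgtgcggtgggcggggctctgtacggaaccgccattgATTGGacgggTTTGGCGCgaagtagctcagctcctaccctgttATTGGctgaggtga

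*Mcm5* was at 0.716, 0.881, 0.885, 0.876 and 0.973 CPM in the AAV-NC livers and at 2.07, 2.88 and 3.19 CPM (lowest, median and highest) with AAV-TuD. The groups did not overlap, but the AAV-NC values stand for 6 to 10 reads each. Its log2 fold change was 1.67 ± 0.21 (edgeR adjusted p = 0.00031). *Mcm6* had 2.03, 1.51, 0.996, 1.38 and 2.82 CPM in the controls and 2.07, 5.92 and 8.50 CPM (lowest, median and highest) with AAV-TuD, a log2 fold change of 1.67 ± 0.35 (edgeR adjusted p = 0.0076). *Mcm7* was at 6.21, 6.42, 6.42, 6.13 and 8.27 CPM against 6.48, 11.3 and 13.5 CPM, and rose by 0.69 ± 0.16 on the log2 scale (edgeR adjusted p = 0.014). *Mcm3* was at 3.58, 4.66, 2.10, 2.88 and 4.28 CPM against 2.54, 8.28 and 9.98 CPM, and rose by 1.13 ± 0.29 (edgeR adjusted p = 0.020, and 0.053 without AAV-NC 6). In *Mcm6*, *Mcm7* and *Mcm3* the 5 AAV-TuD livers other than AAV-TuD 3 were above all AAV-NC livers, and AAV-TuD 3 was within the AAV-NC range. *Mcm2* and *Mcm4* had log2 fold changes of 1.24 ± 0.41 (edgeR adjusted p = 0.062) and 0.76 ± 0.33 (edgeR adjusted p = 0.16), with AAV-TuD 3 the lowest of its group in both. Without AAV-TuD 3 both passed (edgeR adjusted p = 0.035 and 0.048), and without AAV-NC 6 *Mcm3* did not (edgeR adjusted p = 0.053). *Mcm2* also passed with DESeq2 and without AAV-TuD 11, and *Mcm2* and *Mcm4* both passed with library size alone.

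None of the 5 genes of DNA synthesis passed the test in edgeR or limma-voom, DESeq2 called 1 of them, *Rrm1*, and 2, *Rrm1* and *Tyms*, had an unadjusted p below 0.05 in edgeR. *Pcna*, the sliding clamp of the polymerases, was at 10.8 ± 1.05 CPM with AAV-NC (SD, n = 5) and 11.98 ± 2.04 CPM with AAV-TuD (SD, n = 6), a log2 fold change of 0.15 ± 0.13 (edgeR adjusted p = 0.48). *Rrm1* and *Rrm2* encode the subunits of ribonucleotide reductase, which makes deoxyribonucleotides, and had log2 fold changes of 0.71 ± 0.24 (edgeR adjusted p = 0.068) and 0.20 ± 0.23 (edgeR adjusted p = 0.63). *Tyms*, thymidylate synthase, had 0.58 ± 0.21 (edgeR adjusted p = 0.083), and *Tk1*, thymidine kinase, had -0.12 ± 0.13 (edgeR adjusted p = 0.61) at 30.9 ± 6.25 and 28.4 ± 4.53 CPM. Without AAV-TuD 3, *Rrm1* (edgeR adjusted p = 0.025) and *Tyms* (edgeR adjusted p = 0.042) passed, and the mean over the 5 genes differed by 0.37 on the log2 scale in place of 0.28. All 5 genes exceeded 10 reads in every AAV-NC liver. Whether the licensing and mitosis genes changed more than the synthesis genes was not tested.

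The 20 genes of G2 and mitosis gave 9 higher genes among the 13 tested, and 2 of the 4 that exceeded 10 reads in every AAV-NC liver were among them (*Mki67* and *Top2a*). Many genes of this phase share a cell cycle homology region (CHR, TTTGAA or TTCGAA), to which MuvB binds, close to CCAAT letters, to which NF-Y binds. The 100 bases before the RefSeq start sites of 3 of the higher genes show both, in capitals, on either strand (GRCm38.p6; *Cdk1* at chr10:69352913-69353012, minus strand, *Top2a* at chr11:99024190-99024289, minus strand, and *Ube2c* at chr2:164769829-164769928, plus strand).
Cdk1: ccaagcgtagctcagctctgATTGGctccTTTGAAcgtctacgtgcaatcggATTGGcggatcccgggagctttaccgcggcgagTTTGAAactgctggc
Top2a: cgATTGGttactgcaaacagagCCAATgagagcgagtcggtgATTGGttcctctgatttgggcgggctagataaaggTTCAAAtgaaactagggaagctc
Ube2c: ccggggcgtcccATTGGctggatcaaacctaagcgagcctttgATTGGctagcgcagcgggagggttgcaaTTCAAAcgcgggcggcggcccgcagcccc
The CHR letters nearest the start site begin at position -15 in *Cdk1*, -23 in *Top2a* and -29 in *Ube2c*, with the base before the start counted as -1.

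*Cdk1*, the kinase that drives entry into mitosis, was at 0.955, 0.881, 1.11, 0.501 and 1.75 CPM in the AAV-NC livers and at 1.41, 5.99 and 8.10 CPM (lowest, median and highest) with AAV-TuD. AAV-TuD 3 lay within the AAV-NC range and the other 5 AAV-TuD livers were at 4.46 CPM or more. The log2 fold change, 2.36 ± 0.40, was the highest of the 38 genes (edgeR adjusted p = 0.0022). *Top2a*, the topoisomerase that untangles chromosomes before they separate, had 2.27, 5.66, 1.33, 1.75 and 5.55 CPM in the controls and 5.45, 14.9 and 26.1 CPM (lowest, median and highest) with AAV-TuD, a log2 fold change of 2.18 ± 0.40 (edgeR adjusted p = 0.0035). *Mki67*, which coats mitotic chromosomes and is widely used as a proliferation marker, had 1.91, 2.01, 3.65, 1.63 and 5.16 CPM in the controls and 4.13, 9.92 and 17.5 CPM with AAV-TuD, a log2 fold change of 1.79 ± 0.34 (edgeR adjusted p = 0.0039). In both genes AAV-TuD 4 was the highest liver and AAV-TuD 3 the only one of its group within the AAV-NC range. *Birc5*, survivin of the chromosomal passenger complex, was at 1.67, 1.01, 1.33, 0.751 and 2.14 CPM against 2.35, 3.99 and 6.83 CPM, and rose by 1.60 ± 0.33 on the log2 scale (edgeR adjusted p = 0.0064). Its groups did not overlap, with AAV-NC 8 and AAV-TuD 3 next to each other at the border.

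The other 5 higher genes of this phase act on the spindle, the centromere or the exit from mitosis. *Tpx2*, a spindle assembly factor, rose by 2.15 ± 0.55 on the log2 scale (edgeR adjusted p = 0.020), *Ube2c*, the ubiquitin-conjugating enzyme of the anaphase-promoting complex, by 1.99 ± 0.45 (edgeR adjusted p = 0.011), and *Cenpe*, a kinetochore motor, by 1.83 ± 0.47 (edgeR adjusted p = 0.019). *Nusap1*, a spindle-associated protein, rose by 1.37 ± 0.38 (edgeR adjusted p = 0.028) and *Cenpa*, the histone variant of the centromere, by 1.01 ± 0.29 (edgeR adjusted p = 0.032). These are the weakest calls of the group: *Cenpa* lost its call in 8 of the 11 fits that left out 1 liver and *Nusap1* in 3. *Cenpe* lost it without AAV-NC 6 (edgeR adjusted p = 0.051) and with limma-voom. *Tpx2*, which did not exceed 10 reads in any AAV-NC liver, did not pass with limma-voom either (adjusted p = 0.12). *Ccna2*, cyclin A2, and *Aurka*, a spindle pole kinase, had log2 fold changes of 0.92 ± 0.44 (edgeR adjusted p = 0.19) and 0.92 ± 0.30 (edgeR adjusted p = 0.059). *Aurka* passed with DESeq2 (adjusted p = 0.033), with limma-voom (adjusted p = 0.041) and in 3 of the 11 fits without 1 liver. *Cks2*, a small subunit of the Cdk complexes, and *Pttg1*, securin, were read at 14.7 ± 1.15 and 36.1 ± 3.63 CPM with AAV-NC (SD, n = 5) and at 13.4 ± 1.24 and 31.0 ± 2.66 CPM with AAV-TuD (SD, n = 6). Neither passed, with log2 fold changes of -0.13 ± 0.09 and -0.22 ± 0.08, and in both 0 of 6 AAV-TuD livers exceeded the highest control. *Prc1*, a cross-linker of the spindle midzone that was not tested, was at 0.221 to 1.01 CPM with AAV-NC and at 0.939 to 3.10 CPM with AAV-TuD.

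Both genes without a single phase rose. *Stmn1*, stathmin, a microtubule destabiliser, was at 4.42, 3.15, 3.10, 5.76 and 7.49 CPM in the AAV-NC livers and at 7.14, 13.4 and 18.7 CPM (lowest, median and highest) with AAV-TuD, a log2 fold change of 1.46 ± 0.27 (edgeR adjusted p = 0.0035). *Hmgb2*, a chromatin protein of dividing cells, was at 7.16, 10.8, 5.09, 6.63 and 8.08 CPM against 7.79, 13.0 and 15.5 CPM, a log2 fold change of 0.70 ± 0.19 (edgeR adjusted p = 0.027). AAV-TuD 3 was the lowest of its group and within the AAV-NC range in both. *Hmgb2* lost its call in 6 of the 11 fits that left out 1 liver, and the 3′ end of its transcripts is at least 95% identical over 200 bases or more to 5 other genes of the table, so that its count is uncertain.

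The livers did not take part evenly. AAV-TuD 3 was the lowest AAV-TuD liver in 16 of the 19 higher genes, against 408 of all 966 higher genes, and it was within or below the AAV-NC range in 13 of them, against 253 of the 966. In 17 of the 19 the other 5 AAV-TuD livers were all above every AAV-NC liver. This count is over genes already called higher, 10 of which entered the test through the AAV-TuD livers, and it carries no weight as support. AAV-TuD 4 was the highest liver in 9 of the 19 and AAV-TuD 10 in 5, while AAV-NC 8 was the highest control in 10. Without AAV-TuD 3, 24 of 37 genes were higher, *Mcm2*, *Mcm4*, *Rrm1*, *Tyms* and *Aurka* being added, and without AAV-TuD 4, 15 of 35 were. Over all genes the numbers moved in the same directions. They were 1115 of 13147 without AAV-TuD 3 and 675 of 13081 without AAV-TuD 4, against 966 of 13334 with all livers.

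**Figure D3:**
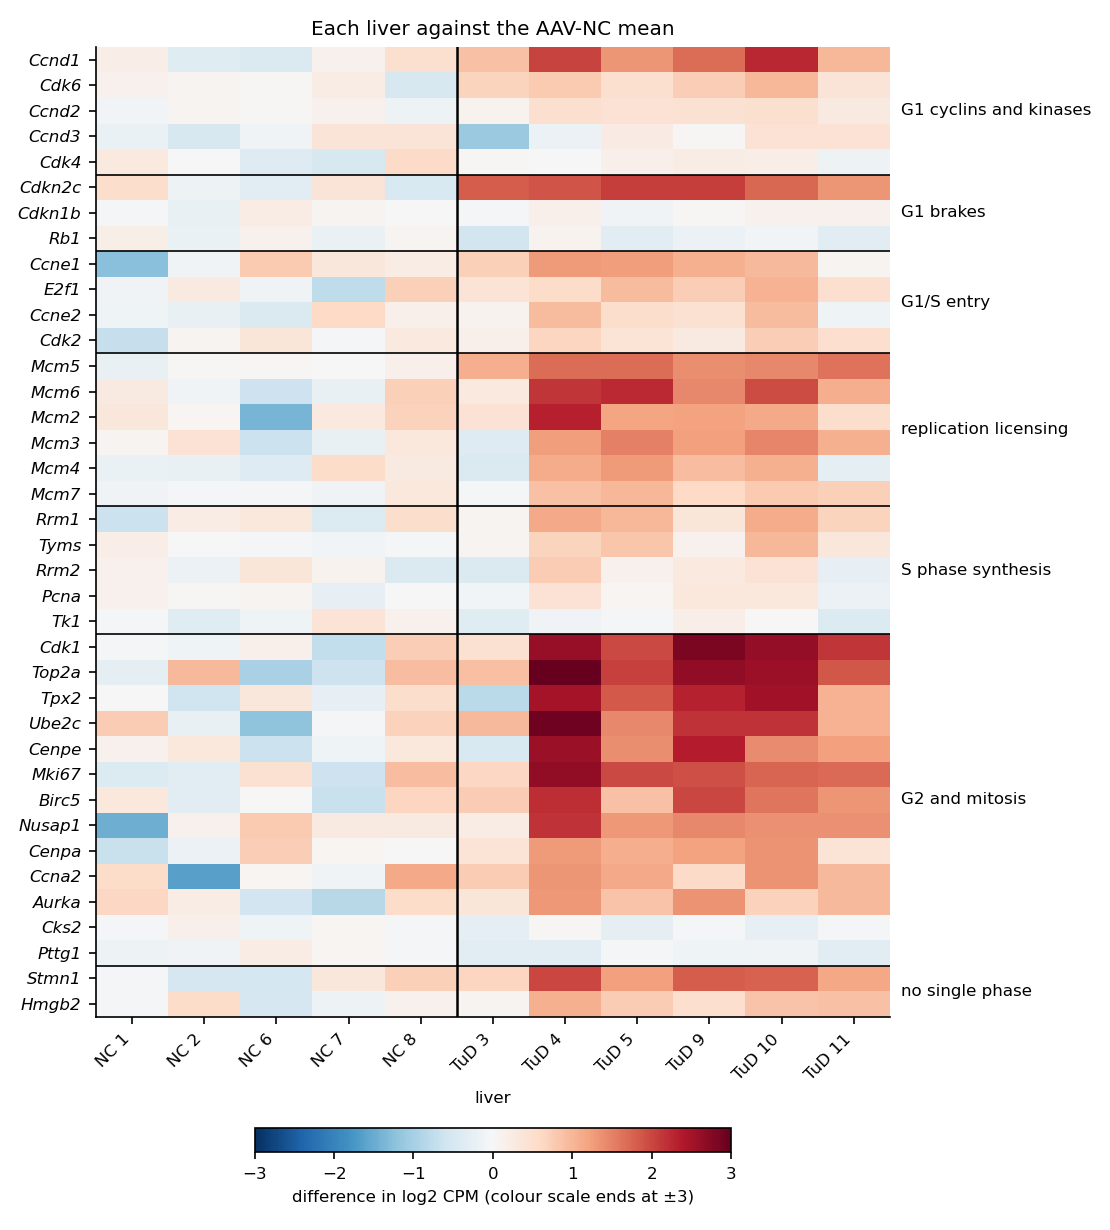
Difference in log2 CPM of each liver (columns) from the mean of the 5 AAV-NC livers, for the 38 cell cycle genes tested (lines, grouped by role and ordered by fold change). AAV-TuD 4, 5, 9, 10 and 11 are red across most licensing and mitosis genes, AAV-TuD 3 is close to the AAV-NC livers there, and *Cks2*, *Pttg1*, *Tk1* and *Cdkn1b* are pale in all livers.

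The livers also differed in the mean log2 CPM over the genes tested of each phase, which is given as a description, without a test. For G2 and mitosis the AAV-NC livers were at 0.98, 0.90, 0.98, 0.76 and 1.55, AAV-TuD 3 was at 1.31, and the other 5 AAV-TuD livers were at 2.09 to 2.91. For licensing the AAV-NC livers were at 0.70 to 1.61, AAV-TuD 3 was at 1.37, and the other 5 were at 2.003 to 2.78. The S phase synthesis genes were at 2.73 to 2.90 with AAV-NC and at 2.64 to 3.37 with AAV-TuD, with AAV-TuD 3 the lowest of all livers. For the G1 brakes all 6 AAV-TuD livers were above the AAV-NC livers, and *Cdkn2c* was the one of the 3 that rose. The difference between the group means was 1.24 for G2 and mitosis and 1.07 for licensing, and 1.44 and 1.25 without AAV-TuD 3. The filter bears on these means. Of the genes averaged, 9 of 13 in G2 and mitosis and 3 of 6 in licensing did not exceed 10 reads in every AAV-NC liver. Among the 3 G1 brakes the same holds for 1, *Cdkn2c*. The levels of these classes therefore carry no weight as support.

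**Figure D4:**
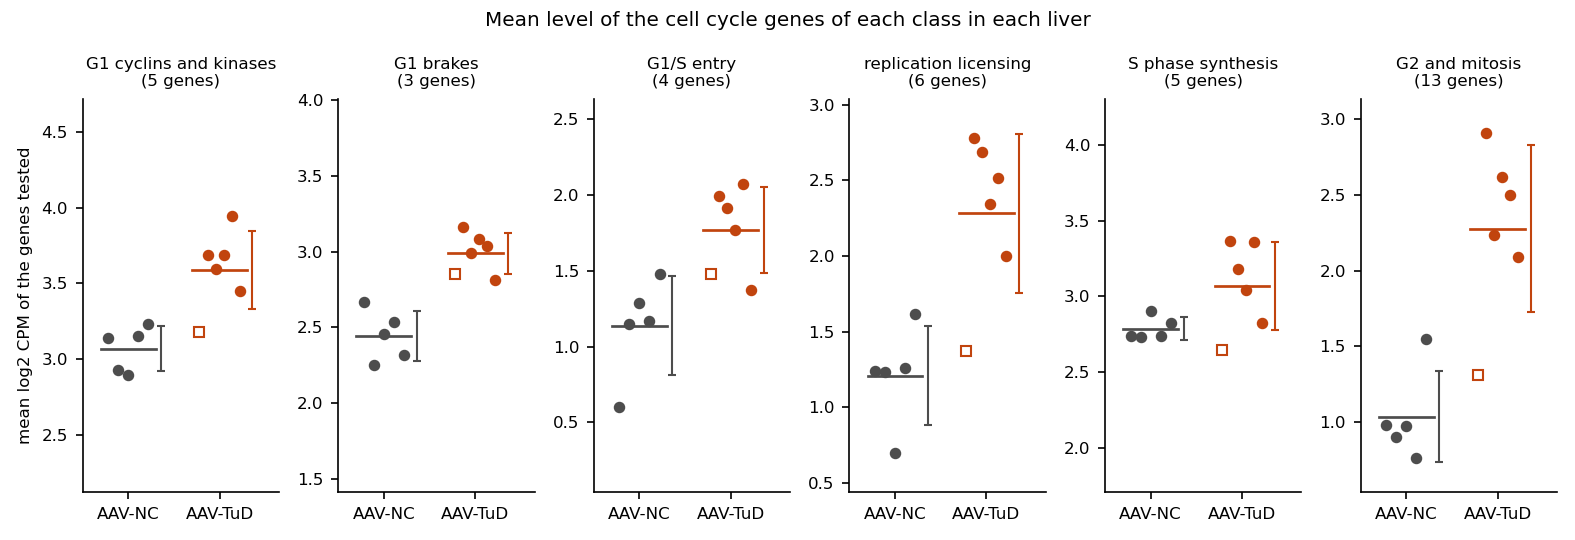
Mean log2 CPM of the genes tested in each of 6 classes in each liver, with the group mean as a line and ±1 SD as a bar (AAV-NC, n = 5; AAV-TuD, n = 6); each panel spans the same number of log2 units. The open square is AAV-TuD 3, which is within the AAV-NC range for G1 cyclins, licensing and mitosis, and below it for S phase synthesis. Of the genes averaged, 9 of 13 in G2 and mitosis and 3 of 6 in licensing did not exceed 10 reads in every AAV-NC liver.

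A wider list of 198 cell cycle genes, none of them among the 45, was read in the same fit. Of the 142 tested, 39 were higher and 2 lower, and of the 98 with more than 10 reads in every AAV-NC liver 13 were higher. Over all genes tested 7.24% were higher and 4.33% lower, and 5.72% of those with more than 10 reads in every AAV-NC liver were higher. Of the 39, 26 entered the test only through the AAV-TuD livers, among them 14 of the 19 higher genes of the kinetochore and spindle class and all 6 higher mitotic kinases and regulators. The count changed with the livers used, and so did that over all genes. It was 25 without AAV-TuD 4, 23 without the 3 livers rich in *Mup* reads and 46 without AAV-TuD 3. Over all genes the numbers higher in these fits were 675, 816 and 1115, against 966 with all livers. By class, 19 of 35 genes of the kinetochore, spindle, chromosome structure and cytokinesis were higher, 6 of 23 other mitotic kinases and regulators, 9 of 28 genes of DNA synthesis and chromatin assembly, 2 of 24 other cyclins and kinases, and 1 of 3 other inhibitors. Among the 15 E2F, pocket protein, MuvB and G2/M transcription factor genes 1 was higher and 1 lower, and likewise 1 and 1 among the 14 genes of origin recognition and firing.

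*Cdkn1a*, which encodes the inhibitor p21, rose: it was at 10.03, 15.2, 3.32, 17.0 and 9.34 CPM in the AAV-NC livers and at 13.1, 42.9 and 61.2 CPM (lowest, median and highest) with AAV-TuD. AAV-TuD 3 was again the one AAV-TuD liver within the AAV-NC range (log2 fold change 1.95 ± 0.37, edgeR adjusted p = 0.0039). Of the mitosis genes, *Smc4*, a condensin subunit, rose from 26.7 ± 4.36 (SD, n = 5) to 47.2 ± 6.66 CPM (SD, n = 6; log2 fold change 0.82 ± 0.12, edgeR adjusted p = 0.00071), without overlap. *Cenpm*, a centromere protein, and the kinases *Nek2* and *Ttk* had log2 fold changes of 2.96 ± 0.43 (edgeR adjusted p = 0.00081), 3.28 ± 0.62 (edgeR adjusted p = 0.0038) and 1.99 ± 0.32 (edgeR adjusted p = 0.0015). All 3 stayed under 10 reads in every AAV-NC liver, so that these sizes depend on a few reads. *Uhrf1*, which helps copy DNA methylation, and *Hells*, a chromatin remodeller, rose by 3.06 ± 0.46 (edgeR adjusted p = 0.0011) and 1.49 ± 0.28 (edgeR adjusted p = 0.0038), *Uhrf1* from 0 to 5 reads per AAV-NC liver.

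In the remaining classes the counts were small and, for other cyclins and kinases, transcription factors and origin genes, near the share over all genes. *Cdt1*, the licensing factor that loads the Mcm ring, rose by 1.22 ± 0.36 (edgeR adjusted p = 0.040), a call lost in 8 of the 11 fits that left out 1 liver (edgeR adjusted p up to 0.085), while *Mcm10*, which activates the loaded helicase and is no part of the ring, fell. *Mcm10* was at 47.4, 47.7, 59.3, 38.4 and 94.0 CPM in the AAV-NC livers and at 25.4, 33.2 and 37.4 CPM (lowest, median and highest) with AAV-TuD. Every AAV-TuD liver was below every AAV-NC liver (log2 fold change -0.83 ± 0.18, edgeR adjusted p = 0.0087). *Rbl1*, the pocket protein p107, rose by 1.18 ± 0.31 (edgeR adjusted p = 0.023, lost in 3 of the 11), and *Rbbp4*, a histone chaperone shared by MuvB and other complexes, had a log2 fold change of -0.32 ± 0.10 (edgeR adjusted p = 0.046), a call that 9 of the 11 fits without 1 liver lost. *Cdk14* and *Cdk19*, kinases not tied to a single phase, rose by 0.9995 ± 0.24 (edgeR adjusted p = 0.014) and 0.47 ± 0.12 (edgeR adjusted p = 0.018). *E2f8*, an atypical E2F that represses transcription and is required for hepatocytes to become polyploid, was at 9.55, 4.41, 8.74, 3.13 and 13.7 CPM with AAV-NC and at 2.35, 4.40 and 8.10 CPM (lowest, median and highest) with AAV-TuD, and did not pass (log2 fold change -0.72 ± 0.35, edgeR adjusted p = 0.21). It overlaps *Gm2788* on the other strand over 3639 bases, which was read at 12.7 and 10.9 CPM in the groups, so without strand the reads of both cannot be told apart. *E2f7*, *Foxm1* and *Mybl2* were not analysed here.

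The letters of the promoters are given by phase, as a description. RefSeq promoters of 300 bases, 250 before the start site and 50 after it, were at hand for 36 of the 45 genes and numbered 40, *Ccnd3*, *Cdkn2c*, *Mcm7* and *Prc1* having 2 each. On either strand, CHR letters (TTTGAA or TTCGAA) were in 12 of the 18 promoters of G2 and mitosis genes, or 66.7%, against 19.2% of all 32851 promoters. CCAAT was in 15 of these 18, or 83.3%, against 37.4%, and both were in 12, against 7.52%. E2F letters (TTTCCCGC or TTTGGCGC) were in 4 of the 6 licensing promoters, those of *Mcm3*, *Mcm5*, *Mcm6* and *Mcm7*, and in 0 of the 18 of G2 and mitosis, against 1.56% of all. CHR letters were in 0 of the 4 promoters of G1 cyclins and kinases, 0 of the 3 of G1 brakes, 0 of the 3 of S phase entry and 0 of the 5 of DNA synthesis. Matches were counted wherever the letters stood, so that they may overlap, as CCAAT and its reverse do in *Ube2c*.

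Genes of either result held these letters. CHR letters were in 7 of the 17 promoters of genes that rose and in 2 of the 16 of genes that did not pass, but *Birc5*, *Nusap1* and *Cenpe*, which rose, held none, and *Aurka*, which did not pass, held them at position 33. Among the genes that were not analysed or not tested, *Ccnb2*, *Cdc20*, *Plk1*, *Bub1* and *Prc1* held them as well. A match is a description of the sequence and not a binding site, and the difference between these shares was not tested.

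Markers of several other liver cells were higher with AAV-TuD as well. All 4 monocyte and recruited macrophage markers tested rose, as did 4 of 7 Kupffer cell markers, 6 of 8 stellate cell markers and 4 of 4 cholangiocyte markers, against 7.24% of all genes tested. Of these, 3 monocyte, 2 cholangiocyte and 1 stellate cell markers entered the test only with the help of the AAV-TuD livers. In such genes the filter favours a higher value with AAV-TuD, and their counts carry no weight as support. For sinusoidal endothelium 0 of 7 markers rose, with edgeR, DESeq2 or limma-voom, or at an unadjusted p below 0.05 in edgeR. The summed Kupffer markers were at 69.5 to 105 CPM with AAV-NC, at 78.5 CPM in AAV-TuD 3, and at 125 to 224 CPM in the other 5 AAV-TuD livers, with AAV-TuD 3 within the AAV-NC range as for the mitosis genes. The summed monocyte markers were at 10.96 to 26.04 CPM with AAV-NC, 25.4 CPM in AAV-TuD 3 and 36.3 to 73.99 CPM in the other 5, but this sum is mostly *Lyz2*, at 24.7 of the 26.04 CPM in AAV-NC 7. For *Lyz2* alone AAV-TuD 3 was at 19.8 CPM, within the AAV-NC range of 9.30 to 24.7 CPM. As a mean log2 CPM over the same 4 markers, the AAV-NC livers were at 0.20 to 0.59, AAV-TuD 3 was at 1.80 and all 6 AAV-TuD livers were above every control. That mean rests mostly on the 3 markers that entered through the AAV-TuD livers, so its separation carries no weight as support. *Ccr2* and *Gpnmb*, which are among these 3 markers, did not overlap between the groups, and *Gpnmb* was at 0 in 4 of the 5 AAV-NC livers. Of all genes tested, 4.11% were without overlap and higher with AAV-TuD. Cholangiocyte markers (20.3 to 40.9 against 47.5 to 79.3 CPM) and stellate cell markers (198 to 254 against 334 to 435 CPM) were instead higher in all 6 AAV-TuD livers, AAV-TuD 3 at 78.0 and 338 CPM.

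Sinusoidal endothelium (249 to 275 against 247 to 267 CPM) lay in the same range in both groups, and of the 7 hepatocyte markers *Hnf4a* alone passed in edgeR, with a log2 fold change of -0.38 (edgeR adjusted p = 0.015). DESeq2 and limma-voom each called 1 hepatocyte marker higher and 1 lower. *Alb*, albumin, did not overlap between the groups (17185 to 23301 against 25671 to 33283 CPM, edgeR adjusted p = 0.081), and the summed hepatocyte markers were at 32013 to 38367 CPM with AAV-NC and 40738 to 47092 CPM with AAV-TuD. Their mean log2 CPM was at 10.60 to 10.81 and 10.51 to 10.79, with 0 of 6 AAV-TuD livers above all controls. Of the scarcer cells, 1 of 6 neutrophil, 1 of 7 B and plasma cell, 3 of 7 erythroid and 2 of 5 megakaryocyte markers were tested. Of these only *Pf4*, a platelet gene, rose (log2 fold change 1.03, edgeR adjusted p = 0.034). *Pf4* did not exceed 10 reads in any AAV-NC liver and entered the test through the AAV-TuD livers, so its call carries no weight as support. The 9 T and NK cell markers were not analysed here. The part of these cells in the cell cycle result was not tested, and in whole tissue the dividing cell type cannot be told apart.

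**Figure D5:**
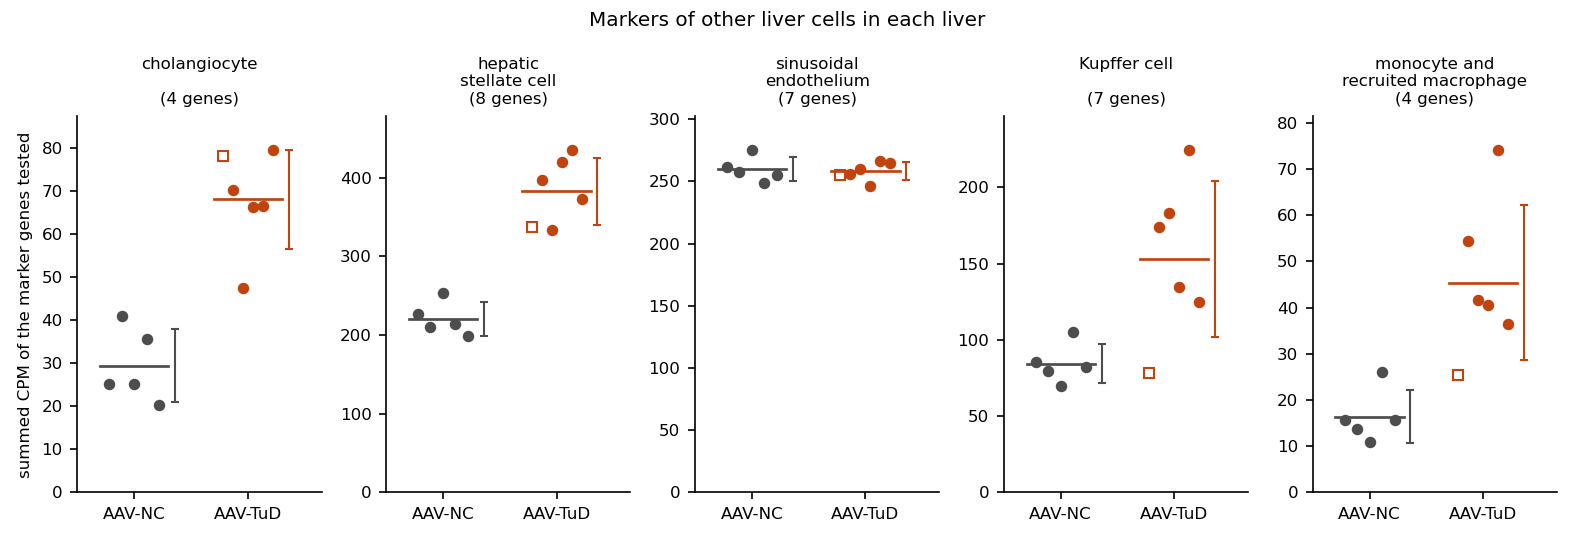
Summed CPM of the marker genes tested for 5 kinds of liver cell in each liver, with the mean as a line and ±1 SD as a bar (AAV-NC, n = 5; AAV-TuD, n = 6). AAV-TuD 3, the open square, is within the AAV-NC range for Kupffer markers and for the *Lyz2*-rich monocyte sum, and above it for cholangiocyte and stellate markers, and the endothelial sums lie at 247 to 275 CPM in all livers.

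Some counts cannot be assigned to 1 gene with certainty, since no source used here states whether strand was used in counting. In the GENCODE M21 annotation (GRCm38), 8 of the 39 genes overlap a gene of the table on the other strand. *Ccnd1* (chr7:144929931-144939925) overlaps *LTO1* over 1771 bases, but *LTO1* was read at only 4.69 and 3.08 CPM in the groups, and *Mcm7* overlaps *Cops6* over 64 bases. For *Ccnd3*, *Rb1*, *Ccne2*, *Tk1*, *Ccna2* and *Prc1* likewise, reads of the gene and of its partner cannot be told apart without strand. The 3′ ends of 10 of the 39 genes matched another annotated transcript, and *Hmgb2* was the one whose look-alikes have values here.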

How the data were processed

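Liver RNA of 11 mice (5 AAV-NC, 6 AAV-TuD) was made into libraries with the QuantSeq 3′ mRNA-Seq V2 kit. Per the study's methods and the submitters' processing notes, reads were trimmed with BBDuk, aligned to GRCm38 with STAR 2.5.3a, and counted with Rsubread, and the authors tested with DESeq2 1.38.3. The deposited values are raw counts of reads per gene, and every one of the 13669 genes of the table has at least 10 reads in 5 or more livers. Strand and annotation release are not given in the sources used here.

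Genes that exceeded 10 reads in 5 livers or more, the study's filter, were tested in R 4.3.3 with edgeR 4.0.16 (TMM, glmQLFit and glmQLFTest, two-sided, no covariate), with Benjamini-Hochberg adjustment at 0.05. SE is the log2 fold change divided by the square root of F, and log2 CPM used a prior count of 2. limma 3.58.1 (voom) and DESeq2 1.42.0 served as alternatives. The script was tested on simulated data. No pair of livers of a group agreed within sampling noise (chi-square per degree of freedom of 7.11 or more). At 8148531 to 12043959 reads per liver, genes under 1 CPM rest on some 10 reads, and intervals cover the spread between livers.

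The members and lists were chosen with earlier results of these data known, so no list is independent evidence. Values per liver were given for at most the 4 higher genes with the smallest p in each class and for *Ccnd1*, *Cdkn1b* and *Mki67*; of the wider list, *Cdkn1a*, *E2f7*, *E2f8*, *Foxm1*, *Mybl2* and the 2 called genes with the smallest p in each class were named. *Pf4*, *Gpnmb*, *Ccr2*, *Lyz2*, *Alb*, *Hnf4a*, *Meg3*, the overlapping genes and the other genes of the list were named after their values were seen. Promoters and miRNAs came from RefSeq, 3′ UTRs and overlaps from GENCODE M21, and 3′ ends (the last 500 bases) were compared with BLAST 2.17.0.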

Additional observations from a re-analysis of the deposited data

Results flagged for a closer look

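In 5 of the 90 sets of values examined, 1 liver stood apart from the others of its group; chance alone sets a liver apart in about 1 set in 20. The number is the gap to the nearest liver as a share of the group's range. *Mcm2* had AAV-TuD 4 far above the other AAV-TuD livers (0.746), and *Mcm3* had AAV-TuD 3 far below them (0.635). Among AAV-NC livers, *Mcm7* had AAV-NC 8 far above the others (0.866), *Tyms* had AAV-NC 1 (0.767), and the mean log2 CPM of the G2 and mitosis genes had AAV-NC 8 (0.720). AAV-NC 8 was at 8.27 CPM for *Mcm7* and at 1.55 for the G2 and mitosis mean. Only groups of 4 or more livers were examined, and no cause was tested.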

How the results depend on the processing

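The 38 cell cycle genes gave 0 lower genes under all settings run, and the number of higher genes was 18 with limma-voom, 22 with DESeq2, 25 with library size alone and 15 to 24 when 1 liver was left out (15 without AAV-TuD 4, 24 without AAV-TuD 3). Over all genes the number higher was 953 with limma-voom, 1060 with DESeq2 and 1386 with library size alone. It was 675 without AAV-TuD 4 and 1115 without AAV-TuD 3, against 966 in the main fit. Library size alone moved the median over all genes to 0.23 on the log2 scale; the cause was not tested. With it, 1 gene of S phase entry and 2 of DNA synthesis were higher, the mean differences of G1 cyclins and kinases, G1 brakes and DNA synthesis genes were 0.75, 0.77 and 0.51 log2 units, and 1 gene of the wider list was lower. With only genes of more than 10 reads in every AAV-NC liver, 9 of 22 genes were higher, with 0 G1 brakes, 2 licensing genes and 2 genes of G2 and mitosis among them, because fewer genes are tested, and the wider list gave 14 higher genes and 1 lower. DESeq2 called 1 gene of DNA synthesis. With a log2 fold change of 1 or more required, 1 G1 cyclin or kinase and 1 of the 2 genes without a single phase were higher. Over all genes 424 were higher under that setting. Leaving out 1 liver gave 0 to 1 genes of S phase entry, 0 to 2 of DNA synthesis (mean difference 0.22 to 0.37), 1 to 2 of those without a single phase, and 25 to 46 higher and 1 to 2 lower genes of the wider list. Without the 3 livers rich in *Mup* reads, a setting chosen after seeing the data, the wider list gave 23 higher genes and 1 lower. It gave 1 lower gene with upper-quartile factors and with limma-voom as well. The cause of these shifts was not tested. No paired analysis was possible because the groups share no replicate number. Genes under 1 CPM rest on about 10 reads per liver, and changes smaller than those called were not detectable there.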
